A study of Mus musculus with 45 samples.

Results

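The effect of tumor necrosis factor (TNF) on RNA of microglia was measured after culture in organotypic slices, thin coronal sections of neonatal brain that stay alive on a membrane. The samples were the 11 libraries labelled TNF and the 9 labelled medium alone in the slice microglia table, 20 of the 45 samples of the series. Slices came from C57BL/6 mice (pups of postnatal days 1 to 4 per the methods), with no genetic change named, and were cultured for 2 weeks in a medium with horse serum. They were then kept for 24 h in medium with 50 ng/mL TNF or in the same medium without it. Per the labels each sample pooled 3 slices, which the methods also allow to be fewer, and live cells high in CD11b and intermediate in CD45 were sorted into lysis buffer. TNF was applied to whole slices, so the microglia could also respond to what other slice cells released. The labels do not say which animals a sample came from, and p-values therefore measure the spread between these samples, part of which may be technical.

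Microglia are the resident macrophages of the brain. TNF is a cytokine that they both release and sense through a receptor found on most cells, encoded by *Tnfrsf1a*, and another that is restricted largely to immune and endothelial cells, encoded by *Tnfrsf1b*. Adaptors and ubiquitin ligases bound to these receptors activate kinases that free NF-kB, a family of dimeric transcription factors, from inhibitor proteins in the cytoplasm. NF-kB raises transcription of several of its own inhibitors, which limits the signal. In macrophages TNF is also known to act on cytokine, adhesion and metabolic genes.

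Levels are given as CPM, read counts scaled to 1000000 per library after TMM adjustment. Differences are log2 fold changes of TNF over medium with their SE (x ± SE where shortened), and a gene was called when its fold change passed 1.5 at an edgeR adjusted p below 0.05. Each SE was worked back from the edgeR test, as the size of the log2 fold change over the square root of its F statistic. Pairs of medians give medium first and then TNF, and the median of a list is that of the log2 fold changes of its tested members. The test covered 11313 genes, of which 20.8% were called (9.10% higher with TNF and 11.7% lower), with a median log2 fold change of -0.03. The 11 TNF libraries lay above all 9 medium libraries for 6.25% of genes and below all of them for 4.01%. These shares are the background for every count below. Lists of chemokine, interferon-stimulated, proliferation and homeostatic microglia genes held 10.3% of the called genes (242). The other 2111 called genes, 922 higher and 1189 lower, are the main subject here. Genes of these 4 lists that are also in a list below stay in its counts, not always with a mention. Among them, called lower, are 2 G protein-coupled receptors, 2 lysosomal genes and 2 disease-associated microglia genes. Whether genes outside the 4 lists belong to the same responses was not tested. Libraries held 5973364 to 9165485 counts. Medium libraries 5 and 8 stood apart from the rest of their group most often (for 12 and 8 of 419 genes named here), and leaving out either gave 2327 or 2361 called genes in place of 2353. The study pooled the slice samples from several independent experiments. Title codes (1A, 1B, 2A and 2B), whose meaning the labels do not give, were spread over both groups, and libraries of a code deviated from their group means more alike (mean correlation 0.0877) than libraries of different codes (-0.0284). With codes 1A and 1B alone (4 medium and 6 TNF libraries) 2344 of 2345 called genes that could be tested kept their direction, and with codes 2A and 2B alone (5 and 5) 2336 of 2336 did, which the choice of these genes from all 20 libraries largely gives.

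The label was checked against marker genes. All 12 microglia markers were measured, with a summed level of 23700 to 32600 CPM in medium and 10800 to 14800 CPM with TNF. Of these, 9 were called lower, and *Itgam* and *Ptprc*, which encode the sorted proteins CD11b and CD45, were not called (0.11 ± 0.095 and 0.14 ± 0.11 on the log2 scale with their SE). In bulk RNA, fewer cells of a type and less RNA per cell cannot be told apart. Monocyte markers summed to 755 to 1880 CPM in medium and 1230 to 3900 CPM with TNF, where 2 of 3 tested members rose (*Hp* and *Fn1*), while *Ccr2*, *Ly6c2* and *Plac8* never exceeded 32, 19 and 19 counts in a library. Neutrophil markers summed to 123 to 202 CPM in medium and 88.2 to 211 CPM with TNF, where *S100a8* and *Mmp8* rose among 4 tested members and *Ly6g* was at 0 in every library. Border macrophage markers summed to 402 to 1130 CPM in medium and 432 to 1190 CPM with TNF, with 3 of 7 tested members lower (*Mrc1*, *Lyve1* and *Folr2*). For astrocytes the sums were 71.4 to 121 and 29.3 to 98.1 CPM, with 1 of 10 tested members lower (*Slc1a3*), and for oligodendrocytes and their precursors 231 to 357 and 265 to 493 CPM, with 2 of 8 higher (*Cspg4* and *Mag*). Neuronal markers stayed at or under 21.3 CPM in sum, endothelial markers at or under 37.2 CPM with 1 of 4 tested members higher (*Kdr*), and lymphocyte markers at or under 39.9 CPM with the only tested member, *Cd4*, lower. Their part in the results below was not tested.

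**Figure D1:**
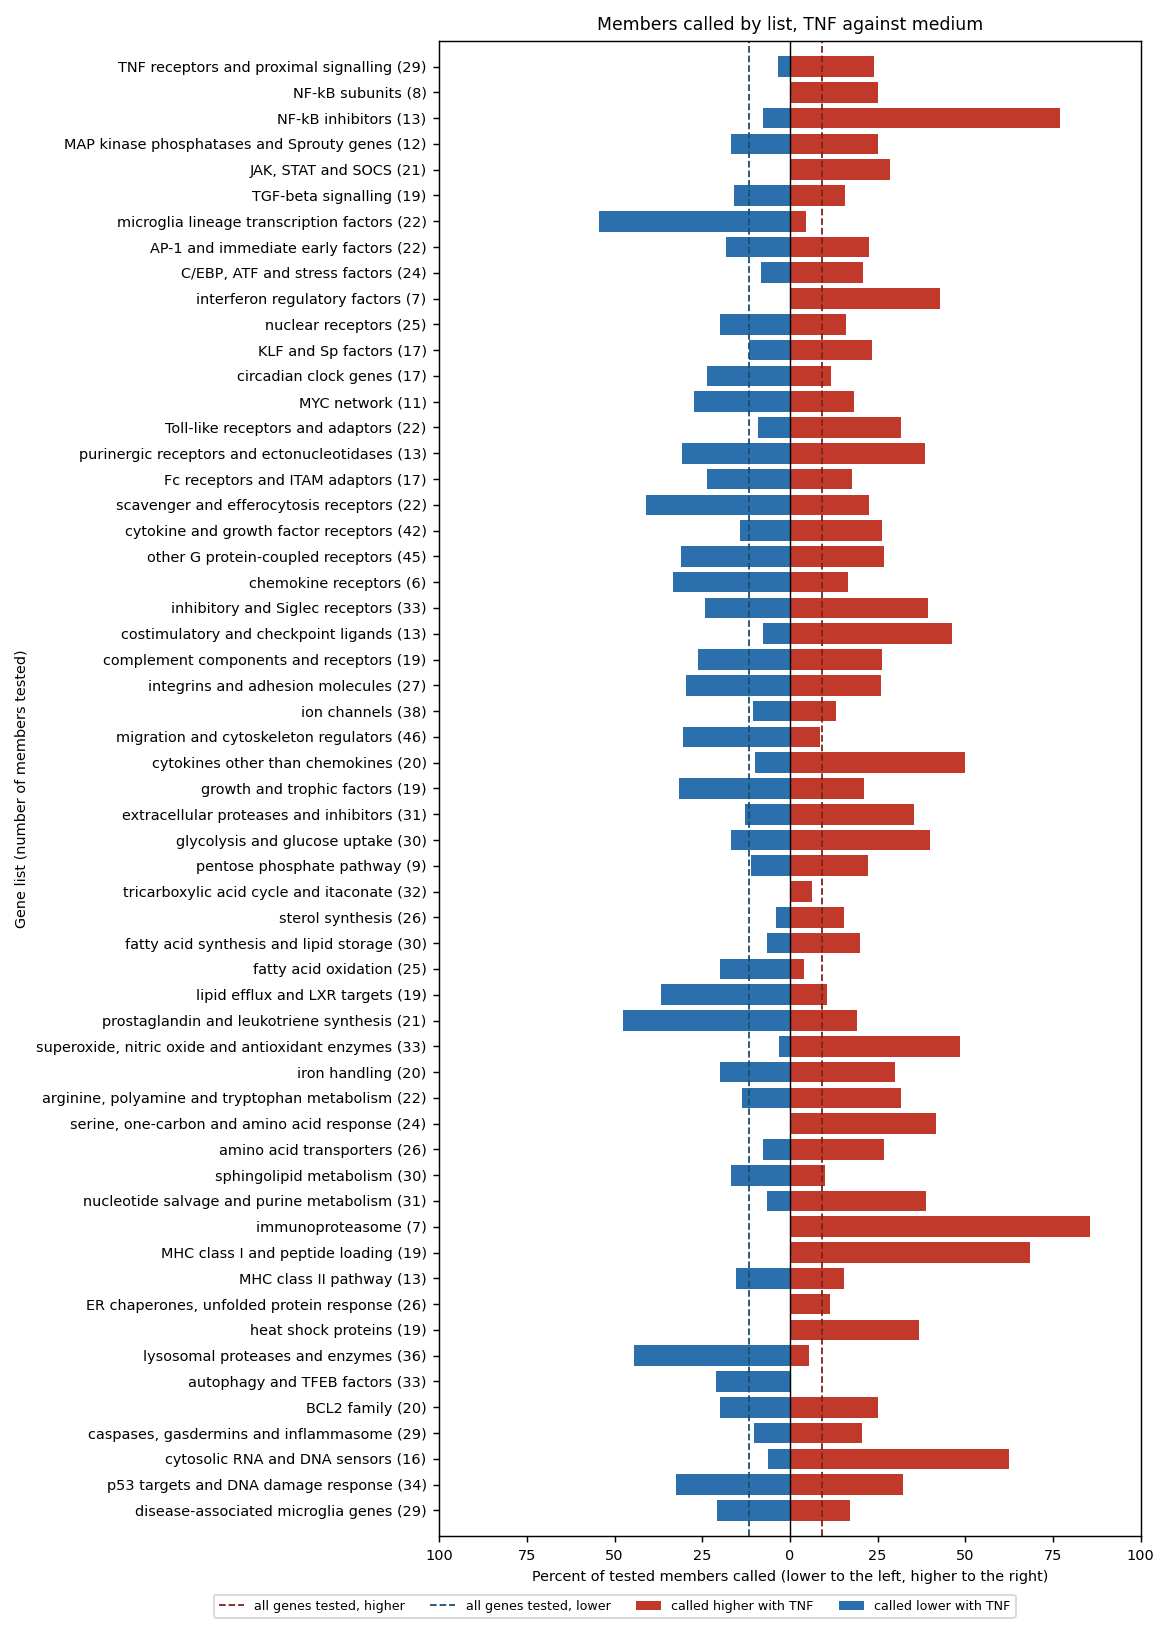
Percent of the tested members of 57 gene lists that were called higher (red, to the right) or lower (blue, to the left) with TNF; the number tested is in parentheses and the dashed lines give the shares over all genes tested, 9.10% higher and 11.7% lower. NF-kB inhibitors (a list that also holds other regulators), the immunoproteasome and MHC class I genes reached furthest to the right. Microglia lineage transcription factors, prostaglandin and leukotriene synthesis genes and lysosomal genes reached furthest to the left.

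NF-kB inhibitor and regulator genes rose as a group with TNF. Of 13 inhibitor and regulator genes 10 were called higher and 1 lower, with 9 above the medium libraries without overlap and a median log2 fold change of 1.17. To show the sequence just upstream of genes of this group, the promoters of the 5 inhibitor and subunit genes that were key members of their list, did not overlap between groups, changed most and had an entry in the promoter table are printed here (RefSeq, build GRCm38.p6, 250 bases before to 50 after the start site farthest 5′, read 5′ to 3′ on the strand of the gene). Capitals mark matches to the NF-kB consensus on either strand, which in *Nfkb2* includes a pair that overlaps.
Nfkbie, chr17:45555450-45555749, plus strand: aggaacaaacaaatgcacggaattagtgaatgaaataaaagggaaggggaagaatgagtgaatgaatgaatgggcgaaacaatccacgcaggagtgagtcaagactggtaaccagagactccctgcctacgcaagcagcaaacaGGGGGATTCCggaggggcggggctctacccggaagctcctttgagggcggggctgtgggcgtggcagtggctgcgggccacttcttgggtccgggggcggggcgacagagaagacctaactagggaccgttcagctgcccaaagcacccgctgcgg
Nfkbia, chr12:55492598-55492897, minus strand: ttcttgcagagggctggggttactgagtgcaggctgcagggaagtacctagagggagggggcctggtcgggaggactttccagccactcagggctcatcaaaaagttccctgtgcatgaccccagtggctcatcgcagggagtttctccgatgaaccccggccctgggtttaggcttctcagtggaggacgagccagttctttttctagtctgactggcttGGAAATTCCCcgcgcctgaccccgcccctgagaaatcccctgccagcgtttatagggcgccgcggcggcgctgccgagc
Nfkb2, chr19:46304487-46304786, plus strand: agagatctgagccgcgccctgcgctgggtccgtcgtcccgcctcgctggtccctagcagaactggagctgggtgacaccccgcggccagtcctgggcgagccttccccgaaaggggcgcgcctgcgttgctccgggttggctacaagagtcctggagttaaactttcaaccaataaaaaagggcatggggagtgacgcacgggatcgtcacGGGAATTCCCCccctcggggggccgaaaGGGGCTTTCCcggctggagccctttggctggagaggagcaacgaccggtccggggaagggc
Tnfaip3, chr10:19015361-19015660, minus strand: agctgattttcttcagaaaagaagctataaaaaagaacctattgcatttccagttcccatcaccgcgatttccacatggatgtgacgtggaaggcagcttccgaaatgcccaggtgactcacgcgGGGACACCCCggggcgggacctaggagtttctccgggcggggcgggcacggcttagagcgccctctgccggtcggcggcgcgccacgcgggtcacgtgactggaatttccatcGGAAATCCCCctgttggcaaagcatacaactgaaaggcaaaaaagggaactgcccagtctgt
Bcl3, chr7:19822706-19823005, minus strand: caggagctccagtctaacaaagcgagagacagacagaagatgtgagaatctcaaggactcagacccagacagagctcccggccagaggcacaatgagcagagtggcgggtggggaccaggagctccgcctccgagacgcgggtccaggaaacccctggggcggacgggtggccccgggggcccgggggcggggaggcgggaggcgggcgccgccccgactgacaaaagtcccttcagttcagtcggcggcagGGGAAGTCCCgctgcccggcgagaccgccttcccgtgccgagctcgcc
Each of the 5 promoters held at least 1 match (1 in *Nfkbie*, *Nfkbia* and *Bcl3*, 2 in *Tnfaip3* and 3 in *Nfkb2*) and 0 matches to the core of the interferon-stimulated response element, searched as GAAANNGAAA and TTTCNNTTTC. A match to the NF-kB consensus was found in 4.98% of the 8875 promoters of tested genes, in 9.62% of those of genes called higher and in 3.54% of those of genes called lower. The response element core was found in 3.25%, 10.3% and 2.66% of the same sets. A match is a description of the letters in this window only.

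The inhibitor genes carried values well apart between the groups. *Nfkbia*, which encodes the inhibitor that holds NF-kB in the cytoplasm and is rebuilt after each pulse of signal, ranged from 180.1 to 263 CPM (median 209) in medium and from 779 to 994 CPM (median 845) with TNF (log2 fold change 2.01, SE 0.067, adjusted p = 2.13e-22). *Nfkbie*, a related inhibitor, lay from 17.4 to 39.5 CPM (median 30.8) in medium and from 131 to 200.3 CPM (median 143) with TNF (log2 fold change 2.35, SE 0.14, adjusted p = 3.81e-16), and *Nfkbib* rose less (1.03 ± 0.079, medians 40.7 and 83.4 CPM). *Tnfaip3* encodes a ubiquitin-editing enzyme that shuts down receptor signalling, and it lay from 41.2 to 92.5 CPM (median 74.4) in medium and from 179 to 278 CPM (median 231) with TNF (log2 fold change 1.71, SE 0.13, adjusted p = 1.19e-13). The TNF libraries lay above every medium library for these 4 genes. *Tnip3*, a partner of that enzyme, changed most in the group, from 3.36 to 15.4 CPM (median 5.89) in medium and from 63.3 to 155 CPM (median 83.4) with TNF (log2 fold change 3.79, SE 0.29, adjusted p = 1.27e-12). Its relatives *Tnip1* and *Tnip2* also rose (1.12 ± 0.15 and 0.83 ± 0.10). The kinase gene *Ikbke* (2.14 ± 0.15) and the adaptor gene *Tank* (1.31 ± 0.14) rose too. The nuclear inhibitor family split: *Bcl3*, which binds NF-kB dimers in the nucleus, rose from a median of 22.8 to 52.4 CPM (log2 fold change 1.17, SE 0.10, adjusted p = 1.76e-11), *Nfkbiz* was not called (0.14 ± 0.25, adjusted p = 0.707), and *Nfkbid* fell (-0.61 ± 0.20). The fall of *Nfkbid* was not called within codes 1A and 1B alone or with the replicate number as a factor.

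Among NF-kB subunits the genes of the slower, noncanonical arm rose and those of the rapid arm were not called. *Nfkb2* lay from 28.4 to 57.5 CPM (median 45.6) in medium and from 126 to 199.5 CPM (median 152) with TNF (log2 fold change 1.84, SE 0.14, adjusted p = 1.69e-13). *Relb*, its partner, lay from 24.4 to 49.0 CPM (median 40.1) in medium and from 86.7 to 151 CPM (median 110.4) with TNF (log2 fold change 1.44, SE 0.12, adjusted p = 5.81e-12). Neither gene's groups overlapped. *Rela* (0.17 ± 0.077), *Nfkb1* (-0.45 ± 0.13) and *Rel* (-0.50 ± 0.25), the canonical subunits, were not called. Of the 8 genes in that list 2 rose and 0 fell, and the kinase subunits *Chuk*, *Ikbkb* and *Ikbkg* were not called. *Map3k14*, which encodes the kinase that starts the noncanonical arm, was lower (-1.05 ± 0.22, medians 17.0 and 8.32 CPM), with overlapping groups, and was not called within codes 2A and 2B alone.

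At the receptor itself, changes were few. *Tnfrsf1a* (medians 146 and 173 CPM, 0.22 ± 0.063) and *Tnfrsf1b* (399 and 519.9 CPM, 0.38 ± 0.086) stayed under the fold limit. *Tnf* RNA rose, from 18.9 to 37.9 CPM (median 32.5) in medium and from 65.0 to 109 CPM (median 92.9) with TNF (log2 fold change 1.54, SE 0.13, adjusted p = 3.34e-12), without overlap. Over the 29 genes of receptors, adaptors, kinases and ubiquitin ligases 7 rose and 1 fell, with a median of 0.22. The risers included *Birc3*, a ubiquitin ligase that protects from death signalling (medians 27.6 and 119 CPM, log2 fold change 2.02, SE 0.095, adjusted p = 8.71e-19), and *Traf1*, an adaptor. *Traf1* had 0 to 34 counts per library in medium and 98 to 229 with TNF (4.23 ± 0.65). *Mlkl*, the executioner of necroptosis, rose from a median of 2.02 to 16.8 CPM (3.22 ± 0.42), and *Cflar*, a brake on caspase activation, from 31.8 to 58.2 CPM (0.88 ± 0.15). The adaptor and kinase genes *Tradd*, *Traf2*, *Ripk1*, *Ripk3* and *Casp8* were not called (log2 0.01 to 0.51). Groups overlapped for *Cflar* and not for *Birc3*, *Traf1* and *Mlkl*.

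**Figure D2:**
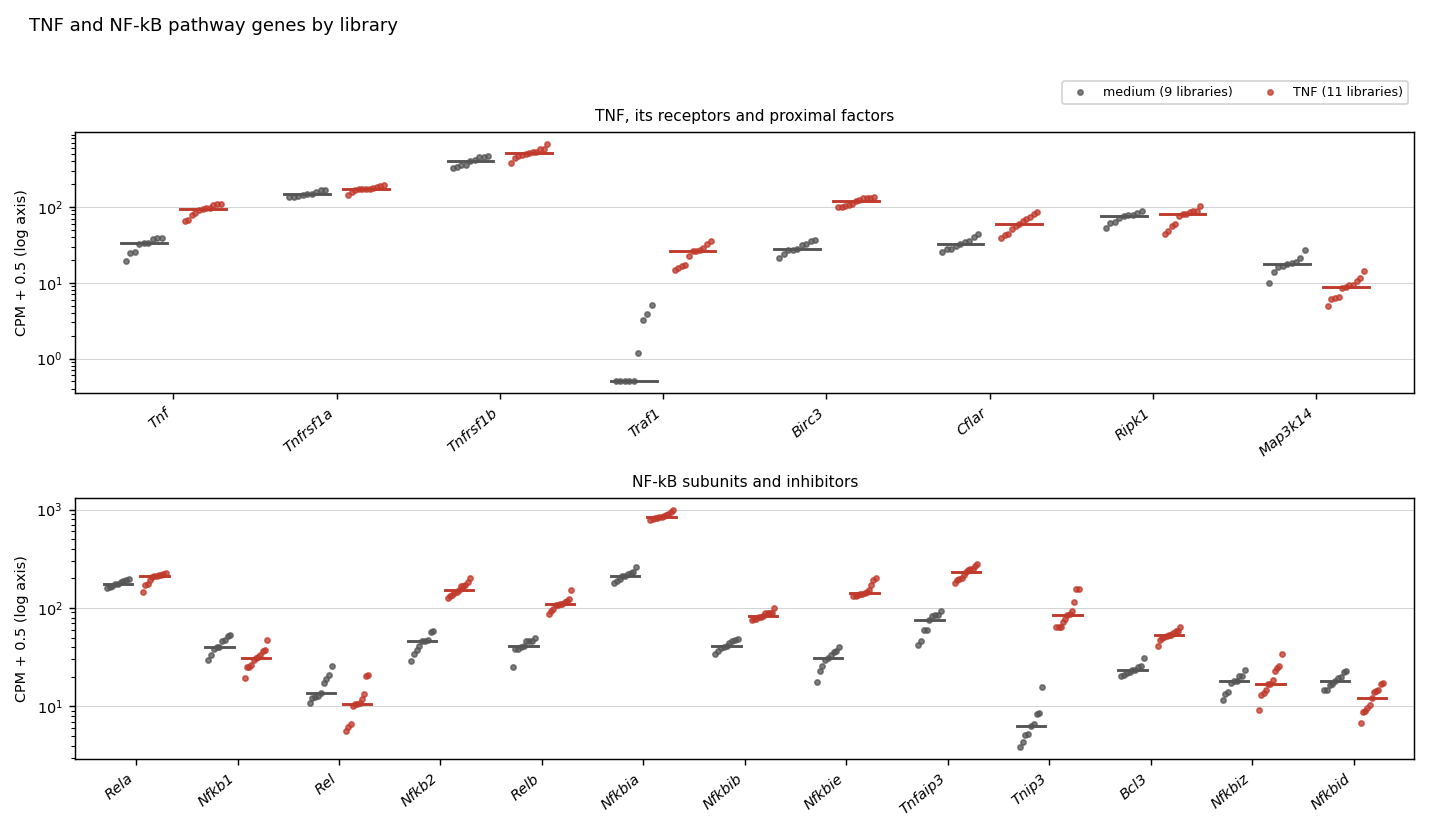
CPM (log axis, 0.5 added) of TNF pathway and NF-kB genes in the 9 medium (grey) and 11 TNF (red) libraries; points are libraries ordered by level within a group and lines are medians. The groups are separate for Tnf, Traf1, Birc3, Nfkb2, Relb, Nfkbia, Nfkbib, Nfkbie, Tnfaip3, Tnip3 and Bcl3, and overlap for Rela, Nfkb1, Rel and Nfkbiz.

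Other signalling brakes moved unevenly. SOCS proteins, which turn off cytokine receptors that signal through JAK kinases, rose in part: *Socs3* ranged from 40.9 to 86.6 CPM (median 67.3) in medium and from 137 to 237 CPM (median 186) with TNF (log2 fold change 1.54, SE 0.14, adjusted p = 2.53e-11), *Socs2* rose from a median of 5.74 to 21.3 CPM (1.99 ± 0.15) and *Cish* from 0.108 to 3.81 CPM (3.39 ± 0.44), all without overlap, and *Socs1* rose with overlap (1.68 ± 0.29). *Cish* had at most 8 counts in a medium library. *Socs4*, *Socs5*, *Socs6* and *Socs7* were not called (log2 -0.46 to -0.32). *Stat2*, also interferon-stimulated, rose (2.30 ± 0.14), and *Stat3*, *Stat5a*, *Stat5b*, *Stat6*, *Jak1*, *Jak3* and *Tyk2* were not called. In all 6 of 21 genes in the JAK, STAT and SOCS list rose and 0 fell (median 0.06). Of the phosphatases that switch off MAP kinases, *Dusp5* (1.25 ± 0.18), *Dusp16* (1.17 ± 0.27) and *Dusp2* (1.14 ± 0.34) rose, *Dusp6* was not called (-0.10 ± 0.092), and *Dusp1* lay from 72.6 to 544 CPM (median 249.7) in medium and from 54.8 to 148 CPM (median 96.6) with TNF (log2 fold change -1.45, SE 0.35, adjusted p = 0.00126). The *Dusp1* groups overlapped, its call was lost within codes 2A and 2B alone, and that of *Dusp2* was lost within either pair of codes.

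Genes of TGF-beta signalling moved both ways, 3 higher and 3 lower of 19 (median -0.13). TGF-beta is the signal that keeps microglia in their resting identity, and the genes of its receptor subunits, *Tgfbr1* and *Tgfbr2*, fell and lay from 420.4 to 590.0 CPM (median 464) in medium and from 196 to 266 CPM (median 217) with TNF (log2 fold change -1.06, SE 0.087, adjusted p = 2.55e-12) and from 449 to 701 CPM (median 513) in medium and from 219 to 394 CPM (median 282) with TNF (log2 fold change -0.91, SE 0.096, adjusted p = 1.03e-09), respectively. Both were separate between the groups. *Acvrl1*, another type I receptor of the family, rose from a median of 108 to 150.3 CPM (0.69 ± 0.095), without overlap, and was not called within codes 2A and 2B alone. The inhibitor *Smad7*, itself a target of the pathway, also fell (-0.65 ± 0.15), the mediator *Smad3* (-0.13 ± 0.17) and the ligand *Tgfb1* (0.25 ± 0.06) were not called, and the matrix gene *Tgfbi* rose from a median of 174 to 675 CPM (1.91 ± 0.17). The corepressor gene *Tgif1* rose as well (0.72 ± 0.087), and *Tgfbr1* is also in the homeostatic list. Within codes 1A and 1B alone 5 of the list fell.

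Transcription factors that define microglia were lower with TNF. Of 22 lineage factors 12 fell and 1 rose (median -0.64), and 3 of those that fell are also homeostatic genes. *Maf* changed most, from 87.7 to 128 CPM (median 107) in medium and from 28.0 to 42.6 CPM (median 32.4) with TNF (log2 fold change -1.69, SE 0.089, adjusted p = 2.21e-17). *Sall1*, a factor needed for microglial identity, fell from a median of 148 to 51.6 CPM (-1.51 ± 0.17), and *Sall3*, its relative, from 32.5 to 13.3 CPM (-1.11 ± 0.22, not called within codes 2A and 2B alone). *Mef2c* ranged from 305 to 419 CPM (median 341) in medium and from 159 to 235 CPM (median 191) with TNF (log2 fold change -0.89, SE 0.095, adjusted p = 1.36e-09). *Fli1*, *Cebpa* and *Ets1*, regulators of blood cell lineages, fell as well (-1.14 ± 0.082, -0.87 ± 0.098 and -1.01 ± 0.16). By contrast *Spi1*, the master factor of the myeloid lineage, lay from 342 to 416 CPM (median 378) in medium and from 438 to 505 CPM (median 487) with TNF, without overlap but under the fold limit (log2 fold change 0.34, SE 0.048, adjusted p = 4.7e-07), and *Irf8* was not called (-0.04 ± 0.053). *Tfec*, a relative of the lysosomal regulators, was the lineage factor that rose (1.56 ± 0.23, medians 5.53 and 12.4 CPM). *Runx1* and *Mef2a* were not called (-0.28 ± 0.11 and -0.52 ± 0.085), and scaling by total counts alone turned *Mef2a* into a call.

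Of 24 C/EBP, ATF and stress factors 5 rose, 2 fell and 17 were not called (median 0.17). *Cebpb*, a factor of inflammatory macrophages, lay from 226 to 292 CPM (median 259.8) in medium and from 649.7 to 889 CPM (median 774) with TNF (log2 fold change 1.58, SE 0.075, adjusted p = 1.2e-18). *Hif1a*, which encodes a factor regulated by oxygen and inflammation, lay from 303 to 418 CPM (median 369) in medium and from 585 to 835 CPM (median 710.5) with TNF (log2 fold change 0.96, SE 0.079, adjusted p = 2.85e-12). *Atf4*, which answers amino acid shortage and other stress, rose from a median of 126 to 207 CPM (0.70 ± 0.081), and *Nfe2l1*, which drives proteasome genes, from 81.8 to 159.8 CPM (0.88 ± 0.13). The first 3 of these were separate between groups. *Nfe2l2*, the antioxidant factor, *Cebpd*, *Xbp1*, *Ddit3* and *Trp53* were not called (log2 0.17 to 0.48). *Epas1*, a relative of *Hif1a*, and *Bach2* fell (-1.66 ± 0.64 and -0.68 ± 0.25). Both calls were lost within codes 2A and 2B alone, and that of *Epas1*, with a median of 1.73 CPM in medium, also without medium library 8 and with no low-count filter.

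The AP-1 family did not move as a block. *Junb* rose, from 281 to 401 CPM (median 356) in medium and from 476 to 602 CPM (median 553) with TNF (log2 fold change 0.69, SE 0.064, adjusted p = 4.25e-11), while *Jun* fell from a median of 136 to 86.7 CPM (-0.69 ± 0.13) and *Fos* was not called (medians 269.8 and 214 CPM, log2 fold change -0.56, SE 0.29, adjusted p = 0.136). *Junb* was separate between groups and the others overlapped. *Batf2* (2.22 ± 0.43), *Maff* (0.96 ± 0.19) and *Fosl2* (0.94 ± 0.19) rose, *Batf3* fell (-1.25 ± 0.25), and *Atf3* and *Egr1* were not called (-0.28 ± 0.10 and -0.57 ± 0.19). *Ier3*, an immediate early gene that answers NF-kB, rose and lay from 112 to 150.0 CPM (median 137) in medium and from 263 to 405 CPM (median 312) with TNF without overlap. 5 of 22 members rose and 4 fell (median -0.08), and within codes 2A and 2B alone 1 fell. The calls of *Jun* and *Fosl2* were lost within codes 2A and 2B alone.

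Single members of other factor families stood out by size. *Irf1*, an interferon regulatory factor that also answers TNF, ranged from 29.02 to 52.6 CPM (median 36.2) in medium and from 81.7 to 134 CPM (median 94.9) with TNF (log2 fold change 1.35, SE 0.14, adjusted p = 1.33e-09), *Irf7* rose from a median of 23.2 to 489 CPM (4.49 ± 0.23) and *Irf9* from 71.97 to 134 CPM (0.77 ± 0.089). Of these 3 risers 2 are also in the lists kept apart. *Irf2*, *Irf3*, *Irf5* and *Irf8* were not called (log2 -0.13 to 0.07). *Nr1h3*, which encodes the oxysterol receptor LXR alpha, rose and lay from 0 to 1.84 CPM (median 1.34) in medium and from 2.93 to 16.5 CPM (median 9.89) with TNF (log2 fold change 3.09, SE 0.42, adjusted p = 1.72e-07), without overlap, and its relative *Nr1h2* was not called (0.10 ± 0.083). Of 25 nuclear receptors and cofactors 4 rose and 5 fell, and *Nr3c1*, the glucocorticoid receptor gene, was not called (0.10 ± 0.092). Among Kruppel-like factors *Klf7* rose (1.30 ± 0.14) and *Klf2*, a brake on myeloid activation, fell (medians 110.0 and 48.8 CPM, log2 fold change -1.02, SE 0.14, adjusted p = 1.94e-07), whereas *Klf4* and *Klf6* were not called. *Sp100* and *Sp110*, nuclear body genes that share the Sp symbol, rose (2.39 ± 0.16 and 1.41 ± 0.11). Of the 4 genes called higher in the list of Kruppel-like and Sp factors 1 is also in the lists kept apart.

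*Myc* itself was not called (medians 98.6 and 120.3 CPM, log2 fold change 0.34, SE 0.11, adjusted p = 0.0126). Its antagonist *Mxd1* rose (1.34 ± 0.23), and *Mxd3*, *Mxd4* and *Mycl* fell (-1.68 ± 0.47, -1.19 ± 0.19 and -2.43 ± 0.78), with medians of at most 24.8 CPM in medium. The *Mycl* call was lost with the replicate number as a block and within either pair of codes, and those of *Mxd1* and *Mxd3* within codes 2A and 2B alone. In the circadian clock *Dbp*, an output gene, fell from a median of 8.53 to 3.18 CPM (-1.57 ± 0.31), *Nr1d2* and *Tef* fell (-1.07 ± 0.30 and -0.76 ± 0.16), and *Per2* and *Bhlhe40* rose (1.03 ± 0.32 and 0.85 ± 0.11). *Nr1d2* and *Per2* were not called within codes 1A and 1B alone. Over the clock list 2 rose and 4 fell of 17, and the core activators *Clock* and *Arntl* were not called.

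**Figure D3:**
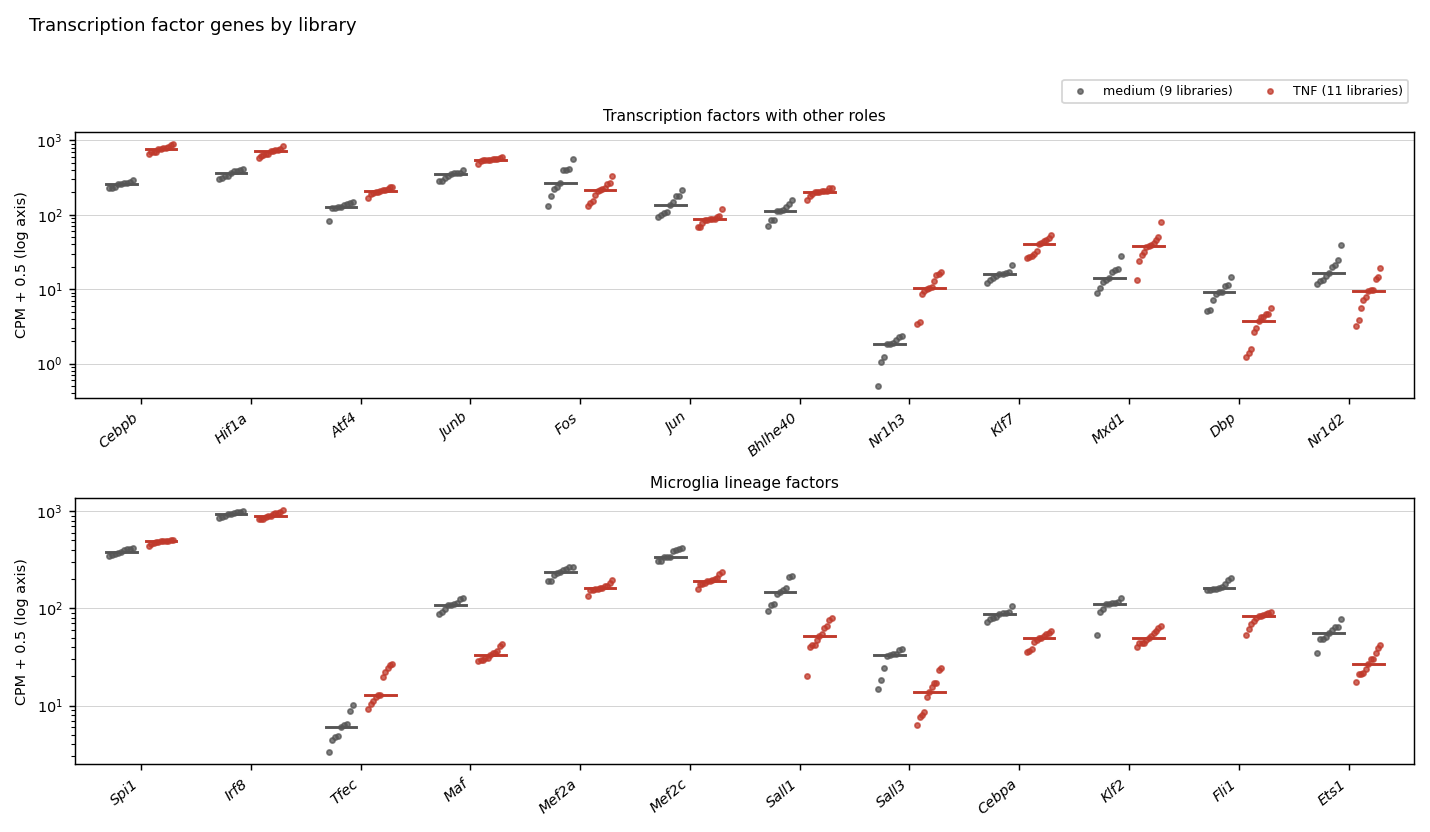
CPM (log axis, 0.5 added) of transcription factor genes in the 9 medium (grey) and 11 TNF (red) libraries; points are libraries ordered by level within a group and lines are medians. Cebpb, Hif1a, Atf4 and Junb lie higher with TNF without overlap, Maf, Mef2c, Sall1, Cebpa and Fli1 lower without overlap, and Irf8, Fos and Jun overlap.

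Some sensors of microbes rose and others were not called. Of 22 Toll-like receptor and adaptor genes 7 rose and 2 fell, with a median of -0.02. *Tlr2*, a sensor of bacterial lipoproteins, ranged from 477 to 888 CPM (median 604) in medium and from 2077 to 3108 CPM (median 2511) with TNF (log2 fold change 1.96, SE 0.097, adjusted p = 3.19e-18), and *Tlr3*, a sensor of double-stranded RNA, from 8.67 to 36.7 CPM (median 19.7) in medium and from 55.7 to 139.8 CPM (median 81.5) with TNF (log2 fold change 2.16, SE 0.20, adjusted p = 4.21e-11). *Cd14*, which hands lipid ligands to these receptors, lay from 854 to 1136 CPM (median 1024) in medium and from 2556 to 3970.0 CPM (median 3301) with TNF (log2 fold change 1.72, SE 0.069, adjusted p = 1.15e-20). The TNF libraries of all 3 lay above every medium library. *Tlr4*, the lipopolysaccharide receptor, was not called (medians 78.8 and 60.7 CPM, log2 fold change -0.19, SE 0.12, adjusted p = 0.23), nor was its partner *Ly96* (-0.26 ± 0.17). *Tlr7* was not called (-0.31 ± 0.09) and *Tlr8* fell (-1.66 ± 0.30). The adaptor *Myd88* rose (1.17 ± 0.10), as did *Irak3*, a decoy kinase that restrains the pathway (1.73 ± 0.16), and *Tlr1*, the partner of *Tlr2* (0.84 ± 0.11).

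C-type lectins and paired receptors included some of the largest rises. *Clec4e*, a sensor of mycobacterial and dead-cell lipids, lay from 10.98 to 42.4 CPM (median 21.5) in medium and from 406 to 1284 CPM (median 809.5) with TNF (log2 fold change 5.16, SE 0.33, adjusted p = 1.78e-13). Its relative *Clec4d* rose (2.50 ± 0.26), and *Clec7a*, the beta-glucan receptor, was not called (medians 414 and 473 CPM, log2 fold change 0.29, SE 0.11, adjusted p = 0.038). *Pilra*, an inhibitory receptor, rose from a median of 31.4 to 216 CPM (2.83 ± 0.13), and the activating receptors *Pilrb1* and *Pilrb2* rose from medians near 1 CPM (4.16 ± 0.35 and 3.45 ± 0.33). Reads of the *Pilrb* genes may be shared, since these are close copies. *Siglec1* (2.25 ± 0.20) and *Cd300lf* (2.54 ± 0.15) rose, while *Siglech* (-1.56 ± 0.25), a microglial marker, *Siglecf* (-1.42 ± 0.27) and the checkpoint receptor *Vsir* (-1.54 ± 0.092) fell. *Vsir* lay from 626 to 1057 CPM (median 818) in medium and from 197 to 377 CPM (median 288) with TNF, without overlap. Over the 33 genes of this list 13 rose and 8 fell (median 0.11).

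G protein-coupled receptors changed in both directions, 12 higher and 14 lower of 45 (median 0.07). The formyl peptide receptors *Fpr1* and *Fpr2*, which guide phagocytes to bacterial and mitochondrial peptides, rose: *Fpr1* lay from 4.66 to 35.7 CPM (median 7.92) in medium and from 69.5 to 203 CPM (median 135) with TNF (log2 fold change 3.35, SE 0.33, adjusted p = 8.33e-10), and *Fpr2* had 0 to 12 counts per library in medium and 166 to 394 with TNF (6.66 ± 0.41). *Gpr84*, a receptor of medium-chain fatty acids, ranged from 167 to 318 CPM (median 240.5) in medium and from 1566 to 2295 CPM (median 1809.8) with TNF (log2 fold change 2.95, SE 0.11, adjusted p = 3.5e-21). *Ptger4*, a receptor of prostaglandin E, rose (1.56 ± 0.11), as did *Hcar2*, the hydroxybutyrate and niacin receptor (1.51 ± 0.13), *Ptafr*, the receptor of platelet activating factor (1.11 ± 0.13), and *C5ar1*, the anaphylatoxin receptor (medians 777 and 1359.6 CPM, 0.83 ± 0.072). All 7 were separate between the groups. Lower were *Adgrg1*, an adhesion receptor typical of yolk sac derived microglia (medians 248 and 37.5 CPM, log2 fold change -2.47, SE 0.17, adjusted p = 2.68e-14), the sphingosine receptor *S1pr1* (medians 185 and 59.1 CPM, log2 fold change -1.63, SE 0.10, adjusted p = 1.14e-15) and the lysophosphatidic acid receptor *Lpar6* (-0.95 ± 0.13). Groups overlapped for *Lpar6* and not for the others. *C5ar2*, a decoy for the ligand of *C5ar1*, moved opposite to it, from a median of 23.5 to 3.56 CPM (-2.30 ± 0.24).

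Genes of adenosine and nucleotide signalling moved both ways. *Adora2b*, the low-affinity adenosine receptor, had 0 to 7 counts per library in medium and 172 to 409 with TNF, so that its fitted log2 fold change (7.80 ± 0.43) rests on few counts in medium. *Nt5e*, which makes adenosine from AMP, rose and lay from 0 to 5.11 CPM (median 2.17) in medium and from 10.5 to 36.8 CPM (median 22.1) with TNF (log2 fold change 3.52, SE 0.42, adjusted p = 1.14e-08), whereas *Entpd1*, which makes AMP from ATP and ADP, lay from 207 to 335 CPM (median 269.5) in medium and from 66.3 to 107 CPM (median 91.6) with TNF (log2 fold change -1.66, SE 0.095, adjusted p = 1.93e-16). Neither enzyme's groups overlapped. *P2ry2* and *P2rx4*, receptors of ATP, rose (1.65 ± 0.14 and 0.69 ± 0.058), *P2rx7*, *P2ry6* and *Adora3* were not called (-0.45 ± 0.083, -0.31 ± 0.064 and -0.41 ± 0.13), and *P2rx1* fell (-0.93 ± 0.27, not called within codes 2A and 2B alone). Of 13 genes tested 5 rose and 4 fell, and 3 of those that fell are also homeostatic genes.

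Receptors for cytokines and growth factors were called higher in 11 and lower in 6 of 42 (median 0.18). *Cd40*, the receptor through which T cells license macrophages, rose and lay from 3.75 to 11.6 CPM (median 6.19) in medium and from 46.0 to 121 CPM (median 95.8) with TNF (log2 fold change 3.74, SE 0.27, adjusted p = 9.75e-14). *Tnfrsf9* (2.35 ± 0.22) and the death receptor *Fas* (medians 4.52 and 18.5 CPM, log2 fold change 2.08, SE 0.23, adjusted p = 1.93e-09) rose, as did *Il2rg* (1.93 ± 0.12) and *Il15ra* (1.30 ± 0.18), which present and receive IL-15. The shared beta chain of the GM-CSF receptor, *Csf2rb*, rose (1.26 ± 0.068), and the alpha chain *Csf2ra* was not called (0.32 ± 0.08). These 6 risers were separate between the groups. The receptor subunits *Lifr* and *Il6ra* of the IL-6 family fell, *Lifr* from 17.2 to 33.0 CPM (median 27.0) in medium and from 1.43 to 9.31 CPM (median 4.94) with TNF (log2 fold change -2.35, SE 0.22, adjusted p = 6.36e-11) and *Il6ra* from 63.2 to 108 CPM (median 76.9) in medium and from 17.97 to 38.9 CPM (median 28.6) with TNF (log2 fold change -1.46, SE 0.14, adjusted p = 1.04e-10), and their common partner *Il6st* was not called (-0.53 ± 0.17). The interferon receptors diverged: *Ifnar1* rose (0.68 ± 0.10), *Ifngr1* fell (medians 826 and 499 CPM, log2 fold change -0.73, SE 0.069, adjusted p = 6.8e-11), and *Ifnar2* and *Ifngr2* were not called (-0.08 ± 0.062 and 0.50 ± 0.058). *Csf1r*, the receptor that microglia need to survive, was lower in every TNF library than in every medium library, but under the fold limit (medians 5029 and 3663 CPM, log2 fold change -0.44, SE 0.066, adjusted p = 1.16e-06).

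Receptors for debris and lipoproteins fell more often than they rose, 9 lower and 5 higher of 22 (median -0.54), and 3 of the lower genes are also homeostatic. *Gas6* and *Pros1*, which bridge dying cells to the TAM receptors, fell: *Gas6* lay from 593 to 843 CPM (median 660.0) in medium and from 75.2 to 163 CPM (median 127) with TNF (log2 fold change -2.52, SE 0.11, adjusted p = 3.73e-20) and *Pros1* from 534 to 783 CPM (median 651) in medium and from 264 to 467 CPM (median 354) with TNF (log2 fold change -0.81, SE 0.087, adjusted p = 1.52e-09). The TAM receptor genes split, with *Mertk* lower (-0.68 ± 0.12, overlapping and not called within codes 2A and 2B alone) and *Axl* not called (medians 990.4 and 1288 CPM, log2 fold change 0.45, SE 0.086, adjusted p = 6.41e-05). *Lrp1*, *Scarb1* and *Mrc1* fell (-1.46 ± 0.20, -1.05 ± 0.10 and -1.70 ± 0.24), the last of these also a border macrophage marker, and *Cd36* and *Cd68* were not called. In the other direction *Msr1*, a scavenger receptor of modified lipoproteins, lay from 152 to 382 CPM (median 199) in medium and from 1167 to 2012 CPM (median 1617) with TNF (log2 fold change 2.72, SE 0.17, adjusted p = 1.15e-14), *Olr1*, a receptor of oxidized lipoprotein, rose from a median of 5.19 to 53.7 CPM (3.49 ± 0.41), *Marco* from 5.62 to 60.9 CPM (3.01 ± 0.63) and *Cd47*, the signal that protects cells from being eaten, from 242 to 509 CPM (1.07 ± 0.083). Of these only *Marco* overlapped between groups. Fc receptor genes diverged: *Fcgr1*, the high-affinity activating receptor, rose (medians 224 and 532 CPM, log2 fold change 1.33, SE 0.082, adjusted p = 1.55e-15), *Fcgr3* fell (medians 1650.3 and 1020.0 CPM, log2 fold change -0.67, SE 0.052, adjusted p = 5.67e-13), *Fcgr2b* and *Fcgr4* were not called (0.08 ± 0.074 and 0.15 ± 0.12), and *Fcgrt*, the neonatal receptor that recycles immunoglobulin, fell (-1.45 ± 0.083). *Trem2*, a lipid receptor of microglia, lay from 1431 to 1914 CPM (median 1709.9) in medium and from 592 to 881 CPM (median 742) with TNF (log2 fold change -1.16, SE 0.07, adjusted p = 8.05e-16), and its adaptor *Tyrobp* was not called (-0.33 ± 0.059).

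Adhesion genes moved both ways, 7 higher and 8 lower of 27 (median -0.13). The ligands of leukocyte integrins rose, *Icam1* from 132 to 224 CPM (median 179) in medium and from 575 to 861 CPM (median 677) with TNF (log2 fold change 1.97, SE 0.091, adjusted p = 4.78e-19) and *Vcam1* from 6.57 to 39.8 CPM (median 16.7) in medium and from 96.2 to 157 CPM (median 119.6) with TNF (log2 fold change 2.69, SE 0.28, adjusted p = 2.6e-09), as did the fibronectin receptor subunit *Itga5* (1.43 ± 0.12) and the hyaluronan receptor *Cd44* (1.35 ± 0.093). *Itgb5*, which pairs with *Itgav* to activate TGF-beta, lay from 1511 to 2180.2 CPM (median 1905) in medium and from 545 to 852 CPM (median 665) with TNF (log2 fold change -1.47, SE 0.08, adjusted p = 5.82e-17), while *Itgav* was not called (-0.16 ± 0.12). The selectin ligand *Selplg* (-1.69 ± 0.10), the laminin receptor subunit *Itga6* (-0.97 ± 0.075) and the adhesion molecule *Cadm1* (-1.34 ± 0.11) fell. All 8 changed genes named here were separate between groups. Among regulators of migration and the cytoskeleton 4 of 46 rose and 14 fell. *Marcksl1* lay from 89.2 to 131 CPM (median 109) in medium and from 421 to 534 CPM (median 475) with TNF (log2 fold change 2.08, SE 0.09, adjusted p = 9.84e-20) and its relative *Marcks*, a membrane-bound actin regulator, moved the other way, from 812 to 1256 CPM (median 903) in medium and from 381 to 539.8 CPM (median 476) with TNF (log2 fold change -1.05, SE 0.074, adjusted p = 3.64e-14). *Elmo1* and *Dock4*, which activate Rac in phagocytosis and migration, fell (-1.05 ± 0.086 and -0.85 ± 0.17), and *Rac1* and *Rac2* were not called. Of 24 small GTPase activating proteins of the *Arhgap* family 12 fell and 1 rose, and of 13 exchange factors of the *Arhgef* family 5 fell and 0 rose.

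**Figure D4:**
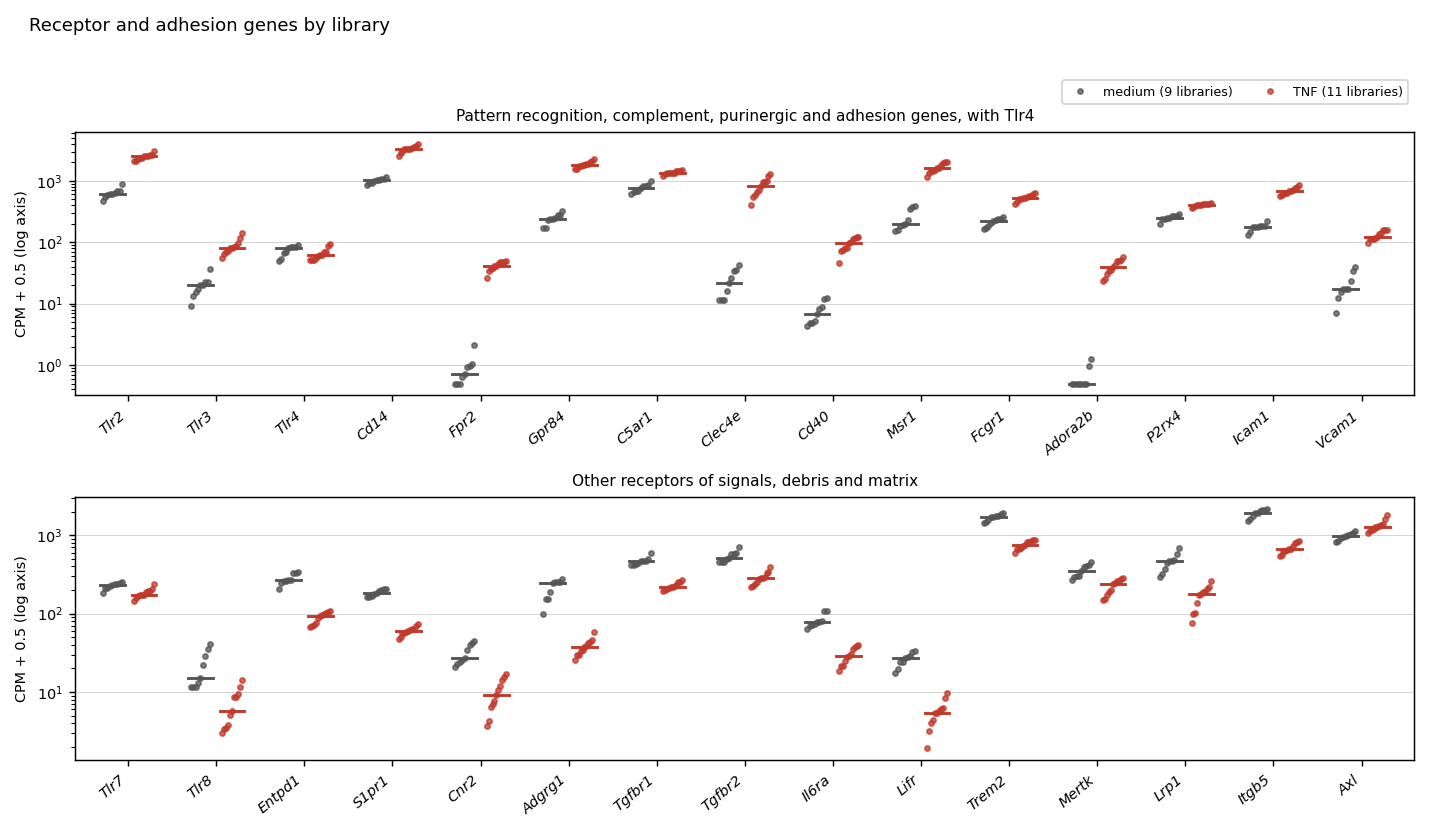
CPM (log axis, 0.5 added) of receptor and adhesion genes in the 9 medium (grey) and 11 TNF (red) libraries; points are libraries ordered by level within a group and lines are medians. Tlr2, Cd14, Fpr2, Clec4e, Cd40 and Msr1 lie higher with TNF without overlap, Entpd1, S1pr1, Adgrg1, Lifr, Trem2 and Itgb5 lower without overlap, and Tlr4 overlaps.

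Secreted cytokines rose in 10 of 20 tested genes and fell in 2 (median 0.68). *Il1b*, the pro-inflammatory interleukin made as a precursor, ranged from 5.06 to 18.8 CPM (median 8.93) in medium and from 77.4 to 181 CPM (median 132) with TNF (log2 fold change 3.70, SE 0.22, adjusted p = 5.4e-16), and *Il1a* from 39.4 to 75.6 CPM (median 58.2) in medium and from 174 to 296 CPM (median 237) with TNF (log2 fold change 2.07, SE 0.12, adjusted p = 1.17e-16). *Il1rn*, which encodes their receptor antagonist, rose and lay from 4.57 to 19.4 CPM (median 7.66) in medium and from 119 to 246 CPM (median 191) with TNF (log2 fold change 4.26, SE 0.24, adjusted p = 3.24e-16). *Il6* rose from a median of 1.11 to 30.0 CPM (log2 fold change 4.45, SE 0.29, adjusted p = 8.54e-15), with 0 to 25 counts per library in medium and 119 to 334 with TNF, and *Il18*, an interferon-gamma inducing factor, from 15.2 to 56.5 CPM (1.77 ± 0.14). All 5 were separate between the groups. *Il16*, a T cell attractant, fell (medians 59.3 and 15.5 CPM, log2 fold change -1.81, SE 0.11, adjusted p = 7.55e-16). *Csf1*, *Spp1* and *Il15* were not called (-0.05 ± 0.17, 0.18 ± 0.30 and 0.30 ± 0.16), and *Il10*, *Il12a*, *Il12b*, *Il23a*, *Ifnb1* and *Ifng* did not pass the count filter. Trophic factors fell in 6 and rose in 4 of 19. *Hbegf* (2.37 ± 0.31), *Pdgfa* (1.03 ± 0.088) and *Vegfa* (0.86 ± 0.16) rose, *Igfbp4* (-1.80 ± 0.23) and *Hgf* (-2.62 ± 0.50) fell, and *Igf1* (medians 324 and 324 CPM, log2 fold change -0.03, SE 0.19, adjusted p = 0.927) and *Grn* (-0.32 ± 0.056) were not called.

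Several extracellular proteases rose. *Adam8*, a metalloprotease of activated myeloid cells, lay from 113 to 279 CPM (median 192) in medium and from 789 to 1599 CPM (median 1307) with TNF (log2 fold change 2.64, SE 0.18, adjusted p = 9.91e-14), *Mmp14*, a membrane-bound collagenase, from 77.5 to 190.4 CPM (median 105) in medium and from 263 to 719 CPM (median 504) with TNF (log2 fold change 2.13, SE 0.20, adjusted p = 3.12e-10), and *Plaur*, the urokinase receptor, rose from a median of 234 to 642 CPM (1.45 ± 0.092). None of the 3 overlapped between groups. *Serpine2* and *Cst3*, inhibitors of serine and cysteine proteases, fell from medians of 2248 and 4517 to 886 and 2526 CPM (-1.13 ± 0.13 and -0.87 ± 0.10), and *Cst7*, another cysteine protease inhibitor, rose (0.85 ± 0.094). *Mmp9* and *Mmp12* were not called. In complement *C3* rose and lay from 8.97 to 34.5 CPM (median 20.8) in medium and from 26.3 to 174 CPM (median 98.2) with TNF (log2 fold change 2.16, SE 0.29, adjusted p = 3.55e-07) with overlapping groups, *Cfb*, the enzyme of the alternative pathway, from a median of 0.289 to 5.55 CPM (3.73 ± 0.55), and *Cfp*, which stabilizes it, from 30.2 to 60.0 CPM (1.67 ± 0.31). Of the classical pathway *C1qc* fell (-0.66 ± 0.065) and *C1qa* and *C1qb* stayed under the fold limit (-0.41 ± 0.059 and -0.47 ± 0.061).

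Antigen presentation genes of class I rose, as did part of the costimulatory list (6 of 13, 1 lower). *Cd274*, the checkpoint ligand PD-L1, lay from 21.0 to 68.6 CPM (median 53.5) in medium and from 165 to 328 CPM (median 213) with TNF (log2 fold change 2.08, SE 0.17, adjusted p = 6.08e-12), and *Tnfsf9* rose from a median of 10.0 to 64.4 CPM (2.64 ± 0.14). *Cd80* and *Cd86* were not called (-0.16 ± 0.34 and 0.10 ± 0.076), and *Cd83* fell (medians 642 and 362 CPM, -0.83 ± 0.09). Of 19 class I and peptide loading genes 13 rose and 0 fell (median 0.96), led by the nonclassical genes *H2-Q6* and *H2-Q7* (3.86 ± 0.28 and 3.67 ± 0.26), whose reads may be shared with their near copies. *Tap1*, the peptide transporter, lay from 56.8 to 88.9 CPM (median 69.0) in medium and from 186 to 389 CPM (median 257) with TNF (log2 fold change 1.84, SE 0.13, adjusted p = 8.04e-14), and *H2-K1* from 579 to 796 CPM (median 711) in medium and from 1063 to 2065 CPM (median 1382) with TNF (log2 fold change 1.09, SE 0.096, adjusted p = 1.32e-11). *B2m* was higher without overlap but under the fold limit (0.54 ± 0.066). All 3 inducible catalytic subunits of the immunoproteasome rose, *Psmb8* (1.14 ± 0.079), *Psmb9* (1.30 ± 0.14) and *Psmb10* (1.11 ± 0.099), with the activator genes *Psme1* (1.00 ± 0.077) and *Psme2* (medians 174 and 505 CPM, log2 fold change 1.46, SE 0.081, adjusted p = 9.69e-17), all without overlap. The standard proteasome rose too, in 19 of 34 subunit genes with 0 lower, a median of 0.61 and a range of 0.22 to 1.25. All 34 differed by edgeR at an unadjusted p under 0.05. In the class II pathway 2 of 13 rose and 2 fell: the invariant chain gene *Cd74* rose (medians 91.8 and 217 CPM, log2 fold change 1.35, SE 0.15, adjusted p = 2.63e-09), *H2-Ab1* was not called (medians 146 and 183 CPM, log2 fold change 0.43, SE 0.17, adjusted p = 0.0463), and *H2-Ob* and *H2-DMa* fell (-1.33 ± 0.20 and -0.65 ± 0.092). The *H2-DMa* call was lost within codes 1A and 1B alone. *H2-Aa*, *H2-Eb1* and the class II activator *Ciita* did not pass the count filter.

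Glycolysis genes rose more often than they fell, with 12 higher and 5 lower of 30 (median 0.56), and 13 lay above the medium libraries without overlap. *Slc2a1*, the main glucose transporter gene, ranged from 278 to 405 CPM (median 377) in medium and from 609 to 946 CPM (median 878) with TNF (log2 fold change 1.18, SE 0.09, adjusted p = 3.51e-13), *Ldha*, which makes lactate, from 1805 to 2244 CPM (median 2126) in medium and from 3549 to 4972 CPM (median 4265) with TNF (log2 fold change 0.98, SE 0.067, adjusted p = 2.23e-14), and *Slc16a3*, which exports it, rose from a median of 501 to 1100.4 CPM (1.08 ± 0.095). The glycolytic enzyme genes *Pgk1* and *Tpi1* rose (0.84 ± 0.06 and 0.79 ± 0.059), and *Gapdh* and *Pkm* stayed just under the fold limit (0.58 ± 0.049 and 0.58 ± 0.054), all of them separate between groups. *Eno1* and *Aldoa* (0.63 ± 0.046 and 0.59 ± 0.055) were called with TMM and not with total counts. Against this direction *Ldhb*, the isoform that favours pyruvate, fell (medians 287 and 123 CPM, log2 fold change -1.30, SE 0.094, adjusted p = 9.01e-14). The largest fall of any tested gene was that of *Slc2a5*, a fructose transporter gene and microglial marker, from 86.1 to 285 CPM (median 182) in medium and from 0.286 to 3.98 CPM (median 2.74) with TNF (log2 fold change -6.04, SE 0.28, adjusted p = 7.52e-18). *Slc2a5* is also in the homeostatic list. The hexokinase genes *Hk1*, *Hk2* and *Hk3* were not called (0.38 ± 0.11, 0.36 ± 0.088 and 0.49 ± 0.076). In the pentose phosphate pathway *Pgd* and *G6pdx*, which make NADPH, rose (0.73 ± 0.055 and 0.60 ± 0.083), the latter not with total counts.

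Few genes of the tricarboxylic acid cycle were called. *Acod1*, which makes itaconate from the intermediate aconitate, rose and lay from 0.937 to 21.1 CPM (median 5.98) in medium and from 269 to 523 CPM (median 377) with TNF (log2 fold change 5.77, SE 0.39, adjusted p = 5.47e-13), while *Sdha*, the enzyme that itaconate inhibits, was not called (medians 407 and 381 CPM, log2 fold change -0.05, SE 0.049, adjusted p = 0.411). Of 32 genes 2 rose (*Acod1* and *Mdh2*) and 0 fell, with a median of 0.19. Nuclear subunits of respiratory complexes shifted little, with medians of 0.23 over 38 genes of complex I and 0.23 over 22 of complexes III and IV and 0 called in either, and 7 tested genes of the mitochondrial genome had a median of -0.36 and 0 called. By edgeR at an unadjusted p under 0.05, 22, 13 and 1 of them differed, in the same order, and DESeq2 called 0, 1 and 0. Mitochondrial ribosomal protein genes rose in 7 of 77 (9.09%, median 0.33) and cytosolic ones in 2 of 85 (2.35%, median 0.22). Neither share was above the 9.10% called higher over all genes. These counts moved with the libraries used. Within codes 1A and 1B alone 21 mitochondrial and 13 cytosolic ribosomal protein genes were called higher, against 6 and 1 within codes 2A and 2B, and so were 3 complex I genes and 4 of complexes III and IV, against 0 and 0.

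Of 33 genes for making and removing oxidants 16 rose, 1 fell and 16 were not called (median 0.58), with 16 genes above the medium libraries without overlap. *Nos2*, the inducible nitric oxide synthase, ranged from 0.579 to 11.4 CPM (median 6.29) in medium and from 32.0 to 133 CPM (median 59.4) with TNF (log2 fold change 3.36, SE 0.32, adjusted p = 1.4e-10), and *Gch1*, which makes its cofactor, from 26.4 to 41.6 CPM (median 31.4) in medium and from 148 to 226 CPM (median 174) with TNF (log2 fold change 2.45, SE 0.12, adjusted p = 1.89e-18). *Cybb*, the catalytic subunit of the phagocyte NADPH oxidase, lay from 248 to 742 CPM (median 370.4) in medium and from 1701 to 2972 CPM (median 2091) with TNF (log2 fold change 2.33, SE 0.20, adjusted p = 5.28e-11), and its cytosolic regulator *Ncf4* rose from a median of 116 to 329.7 CPM (1.49 ± 0.058), whereas *Ncf1* was not called (0.13 ± 0.063). On the side that removes oxidants, *Sod2*, the mitochondrial superoxide dismutase, lay from 71.0 to 116 CPM (median 85.3) in medium and from 569 to 787 CPM (median 655) with TNF (log2 fold change 2.82, SE 0.097, adjusted p = 3.49e-22) and *Prdx5*, a peroxidase, from 322 to 568 CPM (median 437) in medium and from 1289.8 to 2262 CPM (median 1646) with TNF (log2 fold change 1.90, SE 0.10, adjusted p = 2.95e-17), while cytosolic *Sod1* (-0.37 ± 0.099), *Cat* (-0.33 ± 0.083) and *Gpx1* (-0.55 ± 0.096) were not called and *Gpx3* fell (-0.88 ± 0.14, not called within codes 2A and 2B alone). *Slc7a11*, which imports cystine for glutathione, rose and lay from 0.139 to 4.48 CPM (median 1.78) in medium and from 35.4 to 79.4 CPM (median 63.5) with TNF (log2 fold change 4.88, SE 0.31, adjusted p = 3.19e-15), and *Srxn1*, *Gclm*, *Txnrd1* and *Hmox1*, known targets of the factor NRF2 that *Nfe2l2* encodes, rose (1.58 ± 0.11, 1.04 ± 0.12, 0.88 ± 0.081 and 0.95 ± 0.091). *Nqo1* and *Gclc*, other targets, were not called (0.58 ± 0.46 and -0.23 ± 0.11).

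Prostaglandin and leukotriene genes fell more often than they rose, 10 lower and 4 higher of 21 (median -0.83), and 3 of those that fell are also homeostatic genes. The 2 largest rises were in the inducible route to prostaglandin E: *Ptges*, the terminal synthase, ranged from 2.49 to 5.89 CPM (median 3.69) in medium and from 233 to 483 CPM (median 331) with TNF (log2 fold change 6.46, SE 0.26, adjusted p = 2.35e-19), and *Ptgs2*, the inducible cyclooxygenase, from 0 to 5.68 CPM (median 3.21) in medium and from 13.9 to 47.1 CPM (median 20.1) with TNF (log2 fold change 3.01, SE 0.39, adjusted p = 8.42e-08). Both were separate between the groups. *Pla2g4a*, which frees arachidonic acid, rose (0.65 ± 0.10), though not with total counts. *Ptgs1*, the constitutive cyclooxygenase, fell (medians 1317 and 609.5 CPM, log2 fold change -1.08, SE 0.094, adjusted p = 9.65e-12), with the synthases of prostaglandin D, *Hpgds* (medians 266 and 111 CPM, log2 fold change -1.32, SE 0.092, adjusted p = 3.05e-14), and of thromboxane, *Tbxas1* (-0.83 ± 0.071). *Hpgd*, which breaks prostaglandins down, lay from 115 to 475 CPM (median 180.4) in medium and from 16.3 to 71.8 CPM (median 24.3) with TNF (log2 fold change -2.78, SE 0.27, adjusted p = 5.85e-10). In the leukotriene branch *Ltc4s* (-4.00 ± 0.13) and *Alox5ap* (-1.18 ± 0.14) fell and *Alox5* and *Lta4h* were not called (0.18 ± 0.096 and -0.27 ± 0.08).

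Among lipid efflux genes and LXR targets 7 of 19 fell and 2 rose (median -0.51). *Apoe*, the main lipid carrier of the brain, ranged from 15335 to 31766 CPM (median 24436) in medium and from 5013 to 15960.3 CPM (median 12774) with TNF (log2 fold change -1.08, SE 0.21, adjusted p = 0.000143), its cluster neighbours *Apoc1* and *Apoc4* fell (-1.25 ± 0.24 and -3.15 ± 0.24), and *Abca9* lay from 44.7 to 91.9 CPM (median 74.0) in medium and from 1.79 to 11.1 CPM (median 6.20) with TNF (log2 fold change -3.55, SE 0.21, adjusted p = 6.61e-16). The *Apoe* groups overlapped and those of *Abca9* did not. *Abca1*, the best known LXR target, was not called (medians 399.5 and 428 CPM, log2 fold change 0.18, SE 0.12, adjusted p = 0.262), nor was *Abcg1* (-0.51 ± 0.075). *Abcg1* was called lower within codes 2A and 2B alone. *Ch25h*, which makes the signalling oxysterol hydroxycholesterol, rose and lay from 13.98 to 91.4 CPM (median 34.9) in medium and from 582 to 1091 CPM (median 698) with TNF (log2 fold change 3.99, SE 0.31, adjusted p = 1.23e-11). The sterol synthesis genes *Hmgcs1* and *Srebf2* were not called (0.03 ± 0.093 and 0.52 ± 0.17), and *Sqle* rose (0.95 ± 0.16). In fatty acid oxidation 5 of 25 fell and 1 rose, the falls led by peroxisomal *Acox3* (medians 188 and 98.0 CPM, log2 fold change -0.91, SE 0.095, adjusted p = 7.29e-10) and *Hsd17b4* (-0.79 ± 0.068), while *Cpt1a*, the gate to mitochondrial oxidation, was not called (-0.41 ± 0.11). *Fasn*, *Scd2*, *Plin2* and *Lpl* of fat synthesis and storage were not called (log2 -0.26 to 0.21).

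Among iron genes the ferritin heavy chain rose and the exporter fell. *Fth1*, the ferritin heavy chain, ranged from 5708 to 11082 CPM (median 8453) in medium and from 26398 to 42234 CPM (median 33194) with TNF (log2 fold change 2.04, SE 0.11, adjusted p = 1.47e-17), while *Ftl1*, the light chain, was not called (0.14 ± 0.077). *Slc40a1*, the only known iron exporter, lay from 75.01 to 153 CPM (median 132) in medium and from 5.08 to 33.4 CPM (median 26.9) with TNF (log2 fold change -2.38, SE 0.20, adjusted p = 4.33e-12), and *Hfe*, a regulator of iron sensing, from 113 to 153 CPM (median 129) in medium and from 19.5 to 34.7 CPM (median 31.4) with TNF (log2 fold change -2.17, SE 0.097, adjusted p = 2.52e-19). All 3 changed genes were separate between groups. Genes of metal uptake were split, *Slc39a14* higher (1.13 ± 0.12), *Slc39a8* lower (-1.70 ± 0.19) and *Tfrc*, *Slc11a1* and *Slc11a2* not called (0.56 ± 0.15, 0.45 ± 0.056 and 0.39 ± 0.11). 6 of 20 tested members of the list rose and 4 fell.

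Genes of arginine, polyamine and tryptophan metabolism rose in 7 and fell in 3 of 22. The transporter *Slc7a2* rose from a median of 2.39 to 23.4 CPM (3.43 ± 0.34), *Ass1*, which rebuilds arginine from citrulline, from 2.41 to 5.19 CPM (median 3.74) in medium and from 30.5 to 56.6 CPM (median 40.2) with TNF (log2 fold change 3.46, SE 0.20, adjusted p = 1.82e-16), and *Arg1*, which competes for it, from 176 to 617 CPM (median 289) in medium and from 479 to 1124 CPM (median 814) with TNF (log2 fold change 1.27, SE 0.23, adjusted p = 4.86e-05) with overlapping groups. In the serine, one-carbon and amino acid response list 10 of 24 rose and 0 fell (median 0.37). *Asns* (medians 57.9 and 177 CPM, log2 fold change 1.76, SE 0.18, adjusted p = 6.83e-10) and *Mthfd2* (medians 80.2 and 220.4 CPM, log2 fold change 1.36, SE 0.071, adjusted p = 1.47e-17) rose without overlap. *Shmt2* and *Chac1* rose (0.70 ± 0.081 and 1.28 ± 0.20), and *Phgdh*, *Psat1* and *Trib3* were not called (0.19 ± 0.15, -0.47 ± 0.097 and 0.45 ± 0.093). Amino acid transporters rose in 7 and fell in 2 of 26, among them *Slc7a5* (1.18 ± 0.13) and *Slc1a3* (-1.06 ± 0.26), the latter an astrocyte marker as well. *Nampt*, which recycles nicotinamide into NAD, and *Cd38*, which consumes NAD, rose (1.19 ± 0.099 and 1.10 ± 0.19). In nucleotide metabolism 12 of 31 rose and 2 fell, led by *Cmpk2* (medians 3.25 and 150.5 CPM, log2 fold change 5.04, SE 0.31, adjusted p = 1.13e-14), a mitochondrial nucleotide kinase that is also interferon-stimulated, and *Xdh* and *Pnp* of purine breakdown rose (0.90 ± 0.15 and 0.69 ± 0.081).

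**Figure D5:**
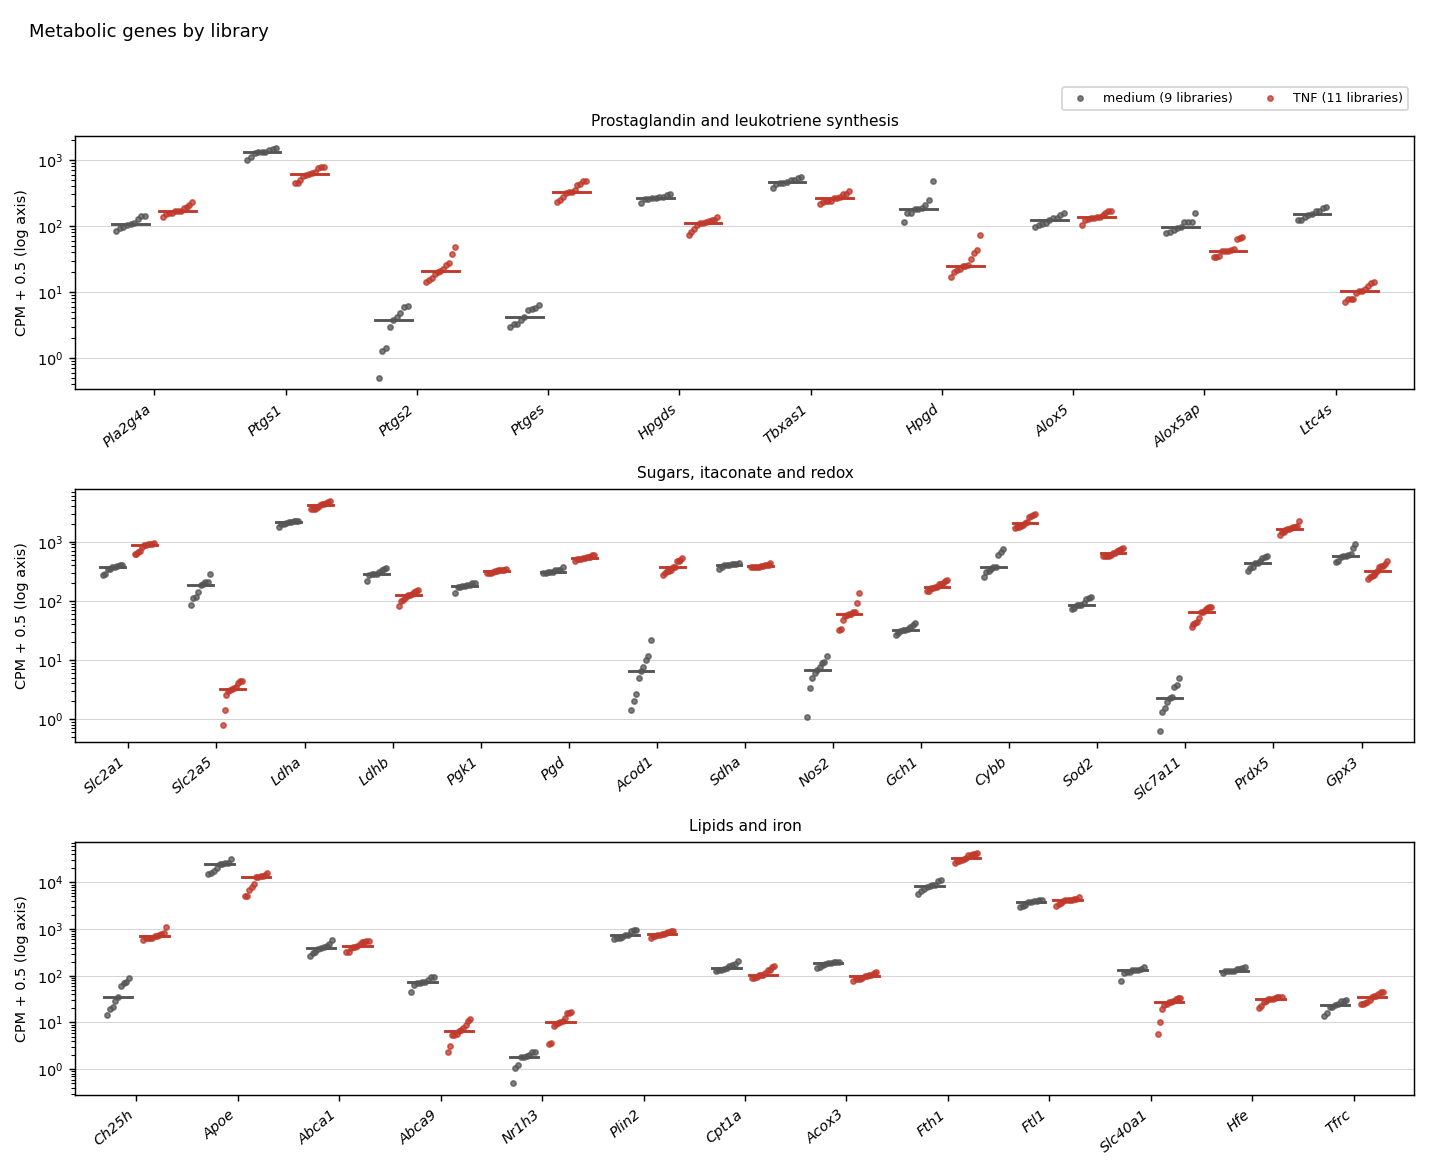
CPM (log axis, 0.5 added) of metabolic genes in the 9 medium (grey) and 11 TNF (red) libraries; points are libraries ordered by level within a group and lines are medians. Ptges, Ptgs2, Acod1, Nos2, Sod2, Slc7a11, Ch25h and Fth1 lie higher with TNF without overlap, Ptgs1, Hpgds, Hpgd, Ltc4s, Slc2a5, Ldhb, Abca9 and Slc40a1 lower without overlap, and Sdha, Abca1 and Plin2 overlap.

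Lysosomal genes fell more often than they rose, 16 lower and 2 higher of 36 (median -0.46), and 16 lay below the medium libraries without overlap. *Ctsd*, an aspartic protease, ranged from 15363 to 22271 CPM (median 19293) in medium and from 7319 to 13346 CPM (median 9916) with TNF (log2 fold change -0.87, SE 0.095, adjusted p = 2.32e-09), *Lgmn*, an asparaginyl protease, from 3915 to 5643 CPM (median 4969) in medium and from 1786 to 3291 CPM (median 2446) with TNF (log2 fold change -0.96, SE 0.076, adjusted p = 9.86e-13), and *Ctsf* fell from a median of 322 to 115 CPM (-1.33 ± 0.12). The glycosidases *Hexa* and *Man2b1* fell (-0.82 ± 0.098 and -1.26 ± 0.11). The exceptions were *Ctsc*, which activates serine proteases of leukocytes, from 1577 to 2324 CPM (median 1888) in medium and from 5595 to 7551 CPM (median 5957) with TNF (log2 fold change 1.68, SE 0.07, adjusted p = 3.14e-20), and *Acp2* (0.79 ± 0.082). *Ctsb*, *Ctsl* and *Ctsz* were not called (log2 -0.22, -0.05 and 0.15). In autophagy 7 of 33 genes fell and 0 rose: *Ulk1* and *Ulk2*, the initiating kinases (-1.16 ± 0.19 and -1.27 ± 0.14), and *Tfeb*, the factor for lysosomal genes (medians 37.9 and 20.3 CPM, log2 fold change -0.82, SE 0.12, adjusted p = 1e-06) fell, and the cargo receptor *Sqstm1* was not called (0.47 ± 0.083). In the list of heat shock proteins 7 of 19 genes rose (36.8%) with 0 lower (median 0.54). Genes of endoplasmic reticulum chaperones and the unfolded protein response rose in 3 of 26 (11.5%) with 0 lower (median 0.11), near the 9.10% called higher over all genes. *Hspa5*, the endoplasmic reticulum chaperone BiP, rose with TMM (medians 1613 and 2496 CPM, 0.62 ± 0.056) but was not called with total counts, nor was *Hspa8* (0.61 ± 0.05).

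In the BCL2 family 5 of 20 genes rose and 4 fell. *Bcl2a1a* and *Bcl2a1d*, near copies of a survival factor that answers NF-kB and may share reads, rose (3.12 ± 0.17 and 2.53 ± 0.16), *Mcl1* lay from 409 to 502 CPM (median 439) in medium and from 694 to 887 CPM (median 814) with TNF (log2 fold change 0.83, SE 0.06, adjusted p = 1.03e-13) and *Bcl2l1* rose (0.63 ± 0.08). The triggers of apoptosis *Bmf*, *Bcl2l11* and *Bid* fell (-1.27 ± 0.25, -0.95 ± 0.21 and -0.78 ± 0.12), *Bax* rose (0.64 ± 0.062), and *Bak1*, *Bbc3* and *Pmaip1* were not called. The calls of *Bax* and *Bcl2l1* were lost with total counts. Caspase and inflammasome genes rose in 6 and fell in 3 of 29: *Nlrp3* (medians 22.6 and 62.3 CPM, log2 fold change 1.45, SE 0.11, adjusted p = 1.11e-13) and *Casp4* (1.54 ± 0.19) rose, and *Casp1*, *Pycard*, *Gsdmd* and *Aim2* were not called (0.51 ± 0.15, 0.56 ± 0.10, 0.45 ± 0.098 and 0.13 ± 0.14). Sensors of foreign nucleic acid rose in 10 of 16 genes, with *Zbp1* going from a median of 7.39 to 147 CPM (3.97 ± 0.22) and *Ddx58* from 18.1 to 124 CPM (2.86 ± 0.22). Of these risers 5 are in the interferon-stimulated list used here, and whether the others answer interferon was not tested. *Tmem173*, which encodes STING, fell (medians 164 and 95.0 CPM, log2 fold change -0.73, SE 0.099, adjusted p = 2.04e-07) and *Cgas* was not called (0.56 ± 0.12). *Cdkn1a*, the inhibitor of cell cycle kinases, rose (medians 391.63 and 953 CPM, log2 fold change 1.31, SE 0.076, adjusted p = 2.53e-16) with *Mdm2*, another p53 target (0.86 ± 0.10), and *Sesn1*, a target as well, fell (-1.91 ± 0.13). Of 34 members of the p53 and DNA damage list 11 rose and 11 fell, and 5 of those that fell are also proliferation genes, and within codes 2A and 2B alone 4 fell. Disease-associated microglia genes were split, 5 higher and 6 lower of 29 (median -0.03).

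Outside the lists, the largest changes at a mean of at least 20 CPM added further genes. *Cd69*, an early activation antigen, lay from 2.09 to 8.76 CPM (median 4.65) in medium and from 138 to 246 CPM (median 187) with TNF (log2 fold change 5.15, SE 0.25, adjusted p = 1.27e-17), *Slamf8*, a receptor that tunes the phagocyte oxidase, from 5.21 to 9.77 CPM (median 6.86) in medium and from 147 to 238 CPM (median 169.9) with TNF (log2 fold change 4.58, SE 0.18, adjusted p = 7.3e-21), and *Mcemp1*, a membrane protein of mast and myeloid cells, from 3.76 to 15.6 CPM (median 5.69) in medium and from 149 to 269.8 CPM (median 200.01) with TNF (log2 fold change 4.71, SE 0.23, adjusted p = 2.48e-17). The membrane trafficking gene *Ehd1* was among those with the smallest p (medians 110.5 and 469.5 CPM, log2 fold change 2.18, SE 0.086, adjusted p = 8.48e-21). Among falls were *Agmo*, an enzyme that cleaves ether lipids (medians 24.4 and 1.24 CPM, log2 fold change -4.10, SE 0.40, adjusted p = 1.56e-10), *Slc46a3*, a lysosomal transporter (medians 82.0 and 6.68 CPM, log2 fold change -3.64, SE 0.19, adjusted p = 1.98e-17), *Cryba4*, a crystallin (-2.87 ± 0.15), and *Epor*, the erythropoietin receptor (-2.56 ± 0.25). *Selenop*, a selenium carrier, lay from 1787 to 2538 CPM (median 2117) in medium and from 484 to 770.4 CPM (median 553) with TNF (log2 fold change -1.88, SE 0.075, adjusted p = 9.62e-21), *St3gal5*, the synthase of the ganglioside GM3, from 129 to 185 CPM (median 157) in medium and from 37.1 to 59.2 CPM (median 44.3) with TNF (log2 fold change -1.84, SE 0.083, adjusted p = 2.53e-19), and *Lsp1*, an actin-binding protein of leukocytes, fell (-1.78 ± 0.094). Each of these 11 genes was separate between the groups. Among genes grouped by symbol, of 360 zinc finger protein genes 50 fell (13.9%, and 24 within codes 2A and 2B alone) and 0 rose (median -0.38). Of 194 solute carriers 25 rose (12.9%) and 19 fell (9.79%), with a median of 0.04. Over all genes tested 9.10% were called higher and 11.7% lower. Translation initiation factors rose in 5 of 45 (11.1%) and cytosolic tRNA synthetases in 3 of 17 (17.6%), with 0 lower in either. Within codes 1A and 1B alone 8 of the first and 1 of the second rose, and within codes 2A and 2B alone 5 and 7.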

How the data were processed

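RNA of microglia sorted from slices was sequenced after amplification with SMART-Seq v4 and Nextera XT in 75-base single reads. The authors deposited read counts per gene, neither normalized nor pooled; the submitters' processing notes name STAR 2.7.0a, featureCounts, Subread 1.6.4 and mm10. Whether strand was used in counting is not given in the sources used here. Annotation was GENCODE M21, which matched 55450 of 55450 gene identifiers, and 0 columns lacked a sample. In the present work counts of 29 slice libraries were fitted with the quasi-likelihood test of edgeR 4.0.16 in R 4.3.3 (TMM scaling, robust fit, minimum count 10, minimum total 15, Benjamini-Hochberg adjustment). The 9 GM-CSF libraries in the fit served to estimate the spread and also entered the count filter and the TMM scaling. Without them 10947 genes were tested, of which 1008 were called higher and 1264 lower. The biological coefficient of variation was 0.281 and the median SE 0.156. Reads were not tagged with molecular identifiers. No pair of libraries was identical, and chi-square per degree of freedom between replicates was 8.68 to 36.4. Marker sums used CPM on total counts.

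Genes and lists were chosen with earlier results of these data known. Named genes were the key members of each list that passed the filter, up to 3 further calls per list and direction by fold change, 2 per symbol family and direction, and from the whole table (mean of at least 20 CPM) the 15 largest and 10 most significant per direction. Some of these genes are not reported here. Of 419 genes in the text 60 lay outside this rule, 15 of them called, and were chosen after their values were seen (among them *Socs3*, *S1pr1*, *Cebpa*, *Tnip1*, *Tnip2* and *C1qc*). Promoter sequences were from RefSeq (GRCm38.p6), with no entry used for *Relb*. Alternatives were other scalings, filters, tools (DESeq2 1.42.0, limma-voom 3.58.1) and sets of libraries, title code or replicate number as a factor, and the adjusted p without a fold limit. Leaving out medium libraries 5 and 8 was added after seeing the data.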

Additional observations from a re-analysis of the deposited data

Results flagged for a closer look

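In the 9 medium libraries 34 of 419 genes named in the text (8.11%) had a highest or lowest library far from the others, by a gap over Dixon's critical share of the group's whole range. Chance gives about 1 in 20 groups, and the 11 TNF libraries were too many for the same rule. Library 5 was the one apart for 12 of them, and the value in parentheses is that share of the range. It was highest for *Alox5ap* (0.528), *Apoc1* (0.51), *Cebpd* (0.652), *Cst3* (0.497), *Hpgd* (0.633), *Ifnar2* (0.579), *Igfbp4* (0.529), *Nr1d2* (0.511), *Pilrb1* (0.584), *Tlr2* (0.498) and *Xbp1* (0.741) and lowest for *Atf4* (0.619). Library 8 was apart for 8, highest for *Hp* (0.64), *Ikbke* (0.542), *Pgd* (0.532), *Tlr3* (0.514) and *Tnip3* (0.607) and lowest for *Ier3* (0.504), *Pgk1* (0.4934) and *Relb* (0.539). The remaining genes were *Batf3* (0.725, lowest in library 6), *Bcl3* (0.52, highest in library 7), *Chuk* (0.585, highest in library 2), *Fpr2* (0.663, highest in library 9), *Hspa8* (0.512, lowest in library 9), *Klf2* (0.51, lowest in library 1), *Lta4h* (0.507, highest in library 4), *Lyve1* (0.541, highest in library 4), *Marco* (0.613, highest in library 7), *Mmp12* (0.545, highest in library 1), *Pilrb2* (0.591, highest in library 9), *Srxn1* (0.573, highest in library 1), *Tgfbi* (0.544, highest in library 9) and *Tgfbr1* (0.567, highest in library 2). Of 30 such genes named by the rule, 0 changed their edgeR call when library 5 or library 8 was left out.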

How the results depend on the processing

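Without the fold limit, the adjusted p alone called 4476 genes, 2247 higher and 2229 lower. Every other alternative gave a total within 1.5 times the 2353 calls, from 1868 (codes 2A and 2B only, 901 higher and 967 lower) to 3382 (no low-count filter, 1488 higher and 1894 lower). The lists and symbol families gave 196 counts of members called higher or lower. By more than 1.5 times, or to or from 0, 26 of them moved with total counts and 91 without the fold limit. Within codes 1A and 1B alone 33 moved, and within codes 2A and 2B alone 27. Total counts gave 881 higher and 1560 lower, moving the share called higher from 43.8% to 36.1% and the all-gene median on the log2 scale from -0.031 to -0.098. DESeq2 called 1073 higher and 1353 lower and limma-voom 1068 and 1435. Without medium library 5 the counts were 1028 and 1299, and without medium library 8 they were 1044 and 1317.

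With the replicate number as a block, 2423 genes were called (1066 higher, 1357 lower), and 2187 of the 2353 calls were also made. The check made could not decide whether libraries were paired, since the same number did not always carry the same title code. Medium library 5, for example, had code 2A and TNF library 5 had code 1B. Same-numbered medium and TNF libraries correlated at 0.0412 to 0.184 over 9 pairs, and 4 of 9 medium libraries correlated best with their own number. With title code as a factor 1071 genes were called higher and 1355 lower, with 2282 of the 2353 calls also made.

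Of 276 called genes named by the rule, 29 lost the call under at least 1 alternative, 13 of them with all 20 libraries. With total counts *Aldoa*, *Bax*, *Bcl2l1*, *Eno1*, *G6pdx*, *Hspa5*, *Hspa8*, *Mdh2* and *Pla2g4a* were lost. *Aldoa*, *G6pdx*, *Mycl*, *Mmp8* and *Nfkbid* were lost with the replicate block, *Mmp8* with limma-voom, *Aldoa* without medium library 8, and *Epas1* without that library or with no low-count filter. Within 1 pair of codes or the other *Bax*, *Bcl2l1*, *G6pdx*, *Mdh2*, *Mmp8*, *Mycl* and *Nfkbid* were lost too, as were *Acvrl1*, *Bach2*, *Dusp1*, *Dusp2*, *Epas1*, *Fosl2*, *Gpx3*, *H2-DMa*, *Jun*, *Map3k14*, *Mertk*, *Mxd1*, *Mxd3*, *Nr1d2*, *P2rx1*, *Per2* and *Sall3*, with fewer libraries in each. No named gene reversed, and 12 genes not called, among them *Egr1*, *Gapdh*, *Gpx1*, *Mef2a*, *Pkm* and *Pycard*, were called under at least 1 of the alternatives with the fold limit.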

Other observations

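Most genes tested encode protein (10802 of 11313), so counts for other kinds of genes are small. Of 60 processed pseudogenes that passed the filter 11 were called higher and 0 lower with TNF, by edgeR, beside 9.10% higher and 11.7% lower over all genes. Reads of a pseudogene may come from its parent gene, and this was not tested. Of 119 long intergenic RNAs 10 rose and 18 fell, and of 78 antisense RNAs, whose reads cannot be told from those of the partner gene without strand, 8 rose and 8 fell. Among the largest changes of the whole table were the nonclassical class I gene *H2-M2* (medians 6.22 and 131 CPM) and, lower, the transcriptional corepressor *Cbfa2t3* (23.6 and 2.18 CPM, -3.22 ± 0.36) and the endosomal exchanger *Slc9a9* (115 and 15.6 CPM, -2.67 ± 0.16).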
